A study of Mus musculus with 9 samples.

Results

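The genes described here are Cebpa, Cebpb, Cebpd and Cebpg, which encode 4 transcription factors of the C/EBP family (CCAAT/enhancer-binding proteins). They were taken as a list of 4 named genes among 21887 protein-coding genes, and every GR peak and every H3K27ac peak within 50 kb of each gene was collected. GR is the glucocorticoid receptor, a steroid hormone receptor that binds DNA after it has bound corticosterone or cortisol. H3K27ac is acetylated lysine 27 of histone H3, a mark of active promoters and enhancers. Both were mapped by chromatin immunoprecipitation and sequencing (ChIP-seq) in granulosa cells, the somatic cells that surround the oocyte.

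The cells came from ovaries of wildtype CBA x C57BL/6 F1 mice aged 21 days. Every mouse was first injected with eCG (equine chorionic gonadotropin, PMSG in the sample titles, 5 IU), which drives follicle growth. At 44 h after eCG, mice were killed (0 h, 2 GR libraries and 1 H3K27ac library) or were given hCG (human chorionic gonadotropin, 5 IU) in place of the natural surge of LH (luteinising hormone) and killed after another 6 h (6 h, 2 GR libraries). The remaining 4 samples, of 9 in the series, were not analysed here. The 6 h group has no counterpart without hCG among these libraries, so the effects of hCG and of the later time cannot be told apart. List lengths were 10119 and 9728 GR peaks at 0 h, 14748 and 10588 GR peaks at 6 h, and 37460 H3K27ac peaks. The list of the first 6 h library was the longest. H3K27ac lay within 1 kb of 6 of 6 granulosa cell marker genes (Foxl2, Fshr, Amh, Inha, Cyp19a1 and Nr5a2). It also lay at 2 of 4 theca, 2 of 5 leukocyte, 2 of 4 endothelial and 1 of 4 oocyte markers, and a part of such cells in the results below was not tested.

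C/EBP proteins are basic leucine zipper factors, which bind DNA as dimers with each other or with related factors. C/EBPα and C/EBPβ activate genes of differentiation in fat, liver, myeloid cells and ovary, C/EBPδ is known as an early gene of inflammation and of the glucocorticoid response, and C/EBPγ lacks a typical activation domain and acts mainly as a partner of the others. In granulosa cells, LH raises C/EBPβ, and C/EBPα and C/EBPβ together are needed for ovulation and for the change of granulosa cells into luteal cells.

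The promoters are shown first because the strongest GR peak of each of the 4 genes lay at a gene end, which in the 3 genes with a promoter entry is the start. The stretches below are the 250 bases before the gene start on the gene's own strand, 5′ to 3′, from RefSeq (build GRCm38.p6). Capitals mark bases that were covered by a GR peak in all 4 libraries. They are chr7:35119043-35119292 on the plus strand (Cebpa), chr2:167688665-167688914 on the plus strand (Cebpb) and chr7:35056567-35056816 on the minus strand (Cebpg).
Cebpa: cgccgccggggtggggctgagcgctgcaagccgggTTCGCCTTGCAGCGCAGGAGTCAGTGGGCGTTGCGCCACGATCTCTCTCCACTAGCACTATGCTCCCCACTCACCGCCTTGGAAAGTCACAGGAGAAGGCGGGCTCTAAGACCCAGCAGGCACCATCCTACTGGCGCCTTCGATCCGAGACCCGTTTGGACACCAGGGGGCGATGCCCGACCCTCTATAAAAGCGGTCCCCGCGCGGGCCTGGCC
Cebpb: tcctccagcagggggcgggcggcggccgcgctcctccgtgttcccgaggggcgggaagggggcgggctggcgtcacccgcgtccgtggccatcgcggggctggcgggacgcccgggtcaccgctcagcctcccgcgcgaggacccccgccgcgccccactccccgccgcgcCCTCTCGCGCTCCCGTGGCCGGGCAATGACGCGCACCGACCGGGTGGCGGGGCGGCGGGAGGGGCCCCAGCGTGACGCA
Cebpg: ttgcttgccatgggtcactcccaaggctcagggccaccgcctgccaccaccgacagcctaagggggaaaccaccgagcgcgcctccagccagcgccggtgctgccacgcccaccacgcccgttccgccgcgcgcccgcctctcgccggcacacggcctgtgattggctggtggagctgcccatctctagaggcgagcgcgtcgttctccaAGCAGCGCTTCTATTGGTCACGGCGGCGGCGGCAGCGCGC
The 4 libraries shared 215 of these 250 bases at Cebpa, 79 at Cebpb and 40 at Cebpg, and each shared stretch ran up to the gene start.

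Motifs were searched on both strands of the 300 bases from 250 before to 50 after the start. The palindromic GR response element, its half-site AGAACA, the C/EBP motif TTGCNNAA, the AP-1 motif TGANTCA and the cyclic AMP response element TGACGTCA had no match in the 3 windows. Among 21006 start sites of protein-coding genes, 0.443%, 16.1%, 10.2%, 6.99% and 2.25% held them, in this order. All GR summits at Cebpb lay 72 to 119 bp into the gene, past the end of its window. So did the summit of the first 6 h library at Cebpa (61 bp) and of the second 6 h library at Cebpg (140 bp). The bases under those summits were not searched. The shorter letters TGACGC, which share the first 5 bases of the cyclic AMP element and were added after the sequences were seen, matched 3 times at Cebpb. These matches lay 181 to 176 bases before the start (on the reverse strand), 53 to 48 before it and 7 to 2 before it. The last pair lies in the capitals of Cebpb above. TGACGC occurred in 9.09% of all start windows, and 0.795% held 2 or more matches. Among starts inside loci called in all 4 libraries, as that of Cebpb is, these shares were 17.1% and 1.85%. CCAAT, the box that gave the family its name and was also added after the fact, matched at Cebpg only, 89 to 85 and 28 to 24 bases before the start, both on the reverse strand. It occurred in 38.2% of all start windows, with 2 or more in 12.7%, and in 39.7% and 17.3% of starts inside loci called in all 4 libraries. The Cebpb window was 80.7% G and C with 50 CG pairs, a GC content that 99.1% of start windows did not exceed, against 71.7% and 38 at Cebpg, 67.3% and 29 at Cebpa, and medians of 56.7% and 13 over all starts. Starts inside loci called in all 4 libraries (3991 of them) had medians of 63.3% and 25.

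Overlapping peaks of the 4 GR lists were joined, and each joined region (locus) counted as called by the libraries with a peak in it. Around the 4 genes lay 14 such loci, 9 near Cebpb, 2 near Cebpa, 2 near Cebpg and 1 near Cebpd. All 4 genes had exactly 1 locus called in all 4 libraries, and it overlapped a gene end. Of all protein-coding genes, 45.5% had a locus of this kind within 50 kb, and 20.5% had one within 1 kb of a gene end. Of the 21006 start sites, 19.0% lay inside such a locus, as did those of Cebpa, Cebpb and Cebpg. A locus called by both 6 h libraries but by no 0 h library (only at 6 h) was found near Cebpb alone (1 of 4 genes, against 16.5% of all genes). None of the 4 genes had a locus called only at 0 h (6.78% of all genes). The other 9 loci were called in other sets of libraries, 6 of them by 1 library alone. They lay near 3 of the 4 genes, and 54.9% of all genes had a locus of this mixed kind. With the stronger 50% of each list, by the authors' p-value, 2 of the 4 gene-end loci were still called in all 4 libraries. The locus only at 6 h near Cebpb was then called by the first 6 h library alone. The gene-end locus of Cebpg kept its peaks in both 6 h libraries but in neither 0 h library, so it was then called only at 6 h.

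**Figure D1:**
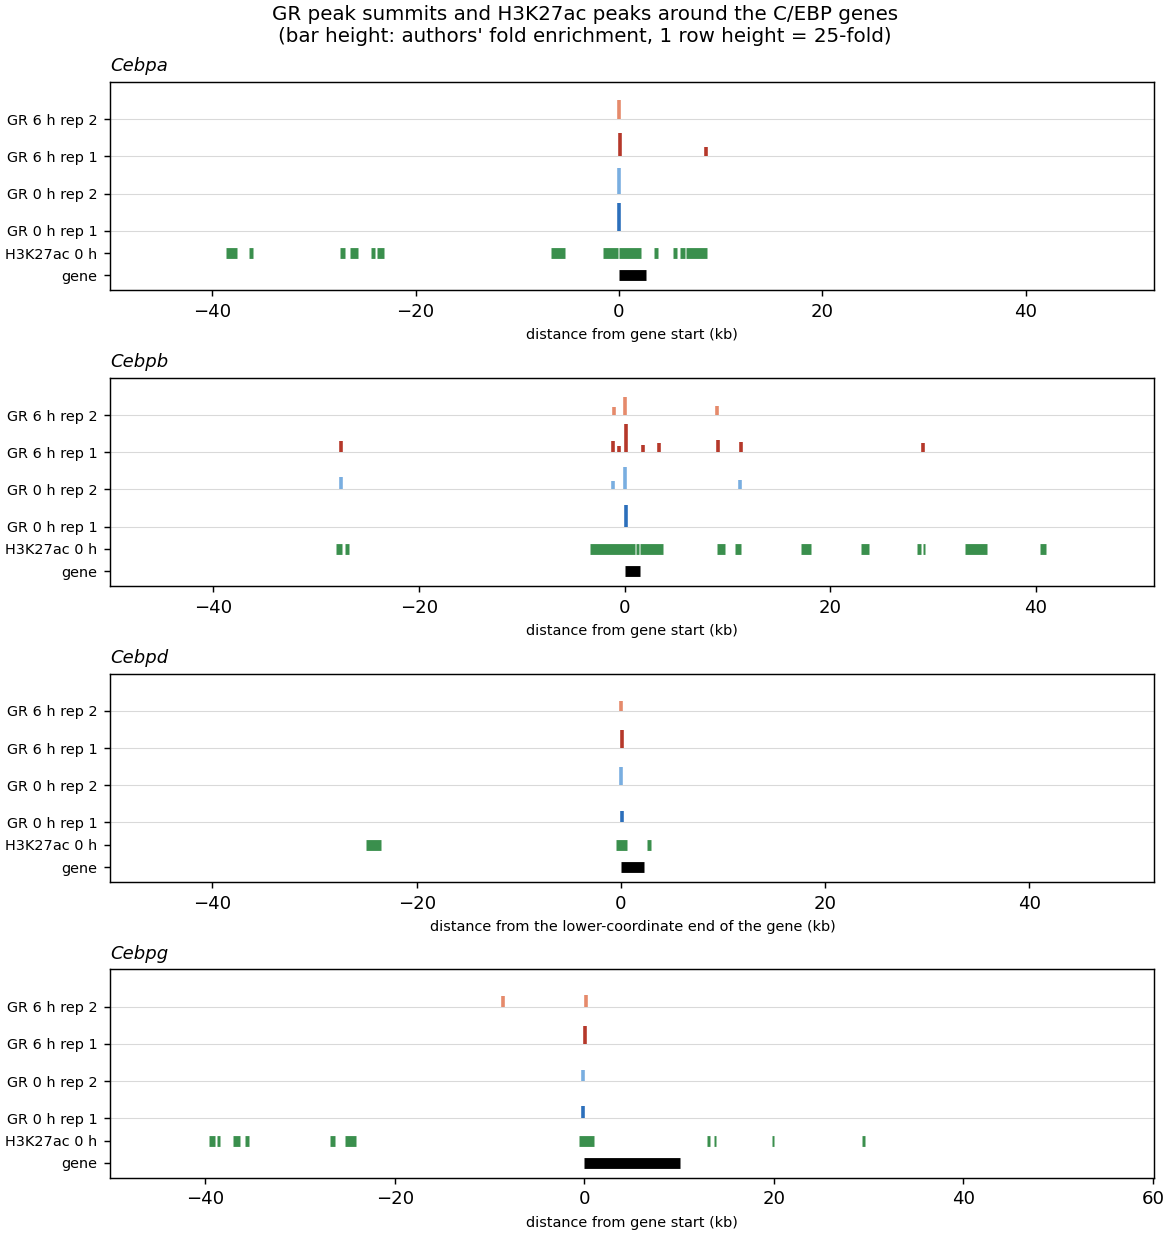
Position of GR peak summits (vertical bars, 1 row per library, height proportional to the authors' fold enrichment) and of H3K27ac peaks at 0 h (green) around each gene (black), in kb from the gene start, or from the lower-coordinate end for Cebpd. Each library has a bar at the gene end of all 4 genes, and most of the remaining bars belong to Cebpb and to the first 6 h library.

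Cebpa (gene ID 12606, chromosome 7, 35119293 to 35121928 of mm10) encodes C/EBPα. The locus at its start (35118528 to 35119543) had fold enrichments, as given by the authors, of 18.4 and 17.4 at 0 h and 15.7 and 13.2 at 6 h. Both values at 6 h were below both at 0 h, as at 20.8% of the 5012 loci called in all 4 libraries. Fold enrichment depends on the depth and background of each list, so each peak was also ranked among the same 5012 loci within its library. Cebpa stood at percentiles 97.8 and 96.5 at 0 h and 91.1 and 95.2 at 6 h. The mean difference of −4.01 points (n = 2 each) had an exact permutation p of 0.333, the smallest possible, and 22.1% of these loci had both 6 h percentiles below both 0 h ones. The summits lay 0 and 33 bp into the gene at 0 h, and 61 bp into it and 11 bp before it at 6 h, so all 4 were within 72 bp of each other.

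H3K27ac at Cebpa was not continuous over this site. A peak that ended 101 bp before the start and another that began 14 bp before it left a gap of 86 bp (35119193 to 35119278), and the 4 GR summits lay inside the second of these peaks, near its edge. The flanking peaks were 1462 and 2160 bp wide, wider than 81.2% and 91.6% of all H3K27ac peaks by rank. The window of Cebpa held 13 H3K27ac peaks against a median of 3, and 95.4% of genes had as many or fewer. The second GR locus of the window (35127770 to 35127993), 5842 bp past the gene, was called by the first 6 h library alone, with a fold enrichment of 6.40 at percentile 24.3 of its list. It overlapped the edge of a broad H3K27ac peak of 2079 bp.

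Cebpb (gene ID 12608, chromosome 2, 167688915 to 167690432) encodes C/EBPβ, the member that LH induces in granulosa cells. Its start locus (167688717 to 167689201) had fold enrichments of 14.8 and 15.1 at 0 h and 19.3 and 11.9 at 6 h. The 6 h values lay on either side of the 0 h values, so the times overlapped. Among the 5012 shared loci it stood at percentiles 93.3 and 93.1 at 0 h and 96.7 and 93.3 at 6 h (difference of means 1.81 points, exact permutation p = 0.667, n = 2 each). The summits fell 119 and 72 bp into the gene at 0 h and 106 and 75 bp into it at 6 h. All 4 summits lay inside the gene, within 47 bp of each other, and the median range between libraries over the 5012 loci was 104 bp.

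The window of Cebpb held 9 GR loci, and 3.52% of all genes had 9 or more. The first 6 h library called all 9, the second 6 h library 3, the first 0 h library 1 and the second 0 h library 4. The locus called only at 6 h (167697836 to 167698136) lay 7404 bp past the gene, with fold enrichments of 8.52 and 5.98 at percentiles 58.5 and 30.4 of their lists. It overlapped an H3K27ac peak of 808 bp, so this chromatin was already acetylated at 0 h. Some 909 bp before the gene, a locus (167687567 to 167688006) was called by the second 0 h library (5.64) and by both 6 h libraries (7.66 and 5.66). Its 3 summits lay between 1103 and 1076 bp before the start, and only the first 0 h library lacked it.

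The remaining Cebpb loci were called by 1 or 2 libraries. A locus 27428 bp before the gene (167661268 to 167661487) had 8.45 in the second 0 h library and 7.59 in the first 6 h library (percentiles 61.7 and 45.1 of their lists). It lay inside the neighbouring gene Tmem189, close to the higher-coordinate end of that gene (167661544). A locus 9652 bp past the gene (167700084 to 167700376) was called by the same 2 libraries, with 6.32 and 6.73 (percentiles 24.2 and 30.02). The first 6 h library alone called loci 374 bp before the gene (4.36), and 113 bp (5.16), 1800 bp (5.90) and 27343 bp (6.42) past it. These 4 peaks stood at percentiles 1.70, 6.52, 16.02 and 24.6 of that list, so they were among its weaker peaks. The count of 1 locus only at 6 h near the 4 genes became 2 when the second 0 h library was left out, also 2 when the first 6 h library was, and 6 when the second 6 h library was. Leaving out a library drops a condition, so this count could only stay or rise.

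All 9 Cebpb loci overlapped H3K27ac. The peak over the gene start was 4355 bp wide and reached from 3337 bp before the start to 1017 bp past it, and 98.7% of all H3K27ac peaks were as narrow or narrower by rank. It held 3 of the GR loci in full, and a peak of 2170 bp just past the gene held 2 more. The window had 13 H3K27ac peaks with 14098 bp in all, which 94.5% of genes did not exceed.

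Cebpd (gene ID 12609, chromosome 16, 15887286 to 15889545) encodes C/EBPδ. Its window held 1 GR locus (15886964 to 15887650), at the lower-coordinate end of the gene. Fold enrichments were 7.84 and 12.0 at 0 h and 12.4 and 6.89 at 6 h. The libraries of one time differed more than the means of the times, with percentiles of 36.9 and 81.5 at 0 h against 76.7 and 52.3 at 6 h (difference of means 5.25 points, exact permutation p = 1, n = 2 each). Summits lay 75 and 6 bp inside that end at 0 h and 84 and 59 bp inside it at 6 h. The locus lay wholly in an H3K27ac peak of 1121 bp, 1 of 3 in the window, which is the median over all genes. The gene Spidr overlaps the other end of Cebpd, and Mzt2 and Prkdc also reach into the window. No further GR locus was called there, so GR calls around this glucocorticoid-responsive gene were the fewest of the 4.

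Cebpg (gene ID 12611, chromosome 7, 35046422 to 35056566, minus strand) encodes C/EBPγ and lies 62726 bp from Cebpa. Its start locus (35056112 to 35056903) had fold enrichments of 8.08 and 7.55 at 0 h and 12.2 and 7.75 at 6 h, which overlapped between the times. Within the 5012 shared loci its percentiles were 39.9 and 29.8 at 0 h and 75.5 and 66.7 at 6 h, which did not overlap. The difference of means was 36.3 points (exact permutation p = 0.333, the smallest possible, n = 2 each). Of the shared loci, 19.1% had both 6 h percentiles above both 0 h ones. The lower 6 h percentile of Cebpg exceeded its higher 0 h percentile by 26.8 points, and 3.55% of the shared loci had a gap this large. This comparison was added after the values were seen and is quoted for the member that stood out, so the share only describes this locus. Within the whole lists, its fold enrichments stood at percentiles 61.0 and 47.6 at 0 h and 86.3 and 64.0 at 6 h. Its p-values stood at percentiles 49.4 and 46.1 at 0 h and 75.4 and 52.4 at 6 h. The times were closer on both of these rankings than among the shared loci.

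The summits at Cebpg were also apart by time. They lay 113 and 174 bp before the gene start at 0 h, and 49 and 140 bp inside the gene at 6 h, a mean shift of 238 bp into the gene (exact permutation p = 0.333, the smallest possible, n = 2 each). Over the 5012 loci the median shift in either direction was 38 bp, 34.9% had summits that did not overlap between the times, and 4.31% combined this with a shift of at least 238 bp. The summit comparison was also added after the values were seen, so these shares only describe this locus. The peak of the second 6 h library was 301 bp wide and did not reach the summits of 0 h, while those of the other 3 libraries were 529 to 792 bp wide and covered all 4 summits. At Cebpa, Cebpb and Cebpd the mean shifts were 8.5, −5 and 31 bp, and the times overlapped. The predicted gene Gm45095 spans the start of Cebpg, so the locus cannot be assigned to one of these genes by position.

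**Figure D2:**
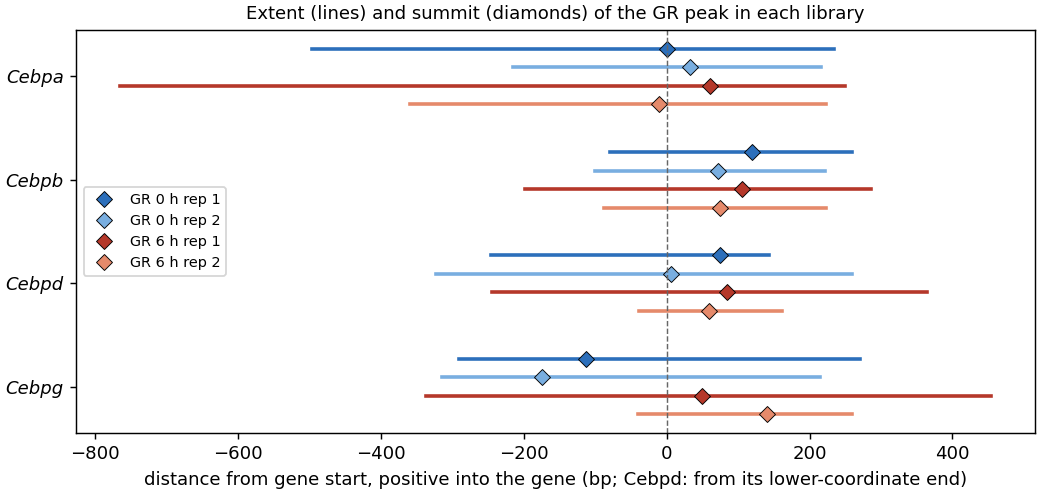
Extent (lines) and summit (diamonds) of the GR peak in each library at the gene-end loci, in bp from the gene start with positive values inside the gene, or from the lower-coordinate end for Cebpd. The 0 h summits of Cebpg lie 113 and 174 bp before the start and its 6 h summits 49 and 140 bp inside the gene, while the times overlap at the other 3 genes.

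The other GR locus in the Cebpg window (35064980 to 35065212) lay 8414 bp before the gene and was called by the second 6 h library alone (7.32, percentile 57.0 of its list). It was the only 1 of the 14 loci outside H3K27ac. The start locus lay in an H3K27ac peak of 1531 bp. Of the 11 H3K27ac peaks in this window, 6 lay between Cebpg and Cebpa and within 50 kb of both, and none of these 6 overlapped a GR peak. With them counted once, the 4 windows held 34 H3K27ac peaks. Of the 14 loci, 13 overlapped H3K27ac, or 92.9% (95% Wilson interval 68.5 to 98.7), beside 74.4% of all 18584 loci and 98.4% of all loci called in all 4 libraries.

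The gene-end loci differed in strength between the genes. In each of the 4 libraries the peaks of Cebpa and Cebpb were above those of Cebpd and Cebpg, in fold enrichment and in percentile. The order of Cebpa and Cebpb, and that of Cebpd and Cebpg, changed from library to library. Cebpa was above Cebpb in both 0 h libraries and the second 6 h library, and below it in the first 6 h library. Cebpd was above Cebpg in the second 0 h and the first 6 h library and below it in the others. Over the 16 peaks at these loci, the median percentile within the library's whole list was 89.9, with fold enrichments from 6.89 to 19.3. By gene, these percentiles ran from 90.2 to 98.9 at Cebpa and Cebpb and from 47.6 to 89.6 at Cebpd and Cebpg. The 15 peaks elsewhere in the windows, all in loci not called in all 4 libraries, ranged from 4.36 to 8.52, and 12 of them were below percentile 50 of their list. A split by calling libraries favours weaker peaks in this second set, so the contrast was partly fixed in advance.

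**Figure D3:**
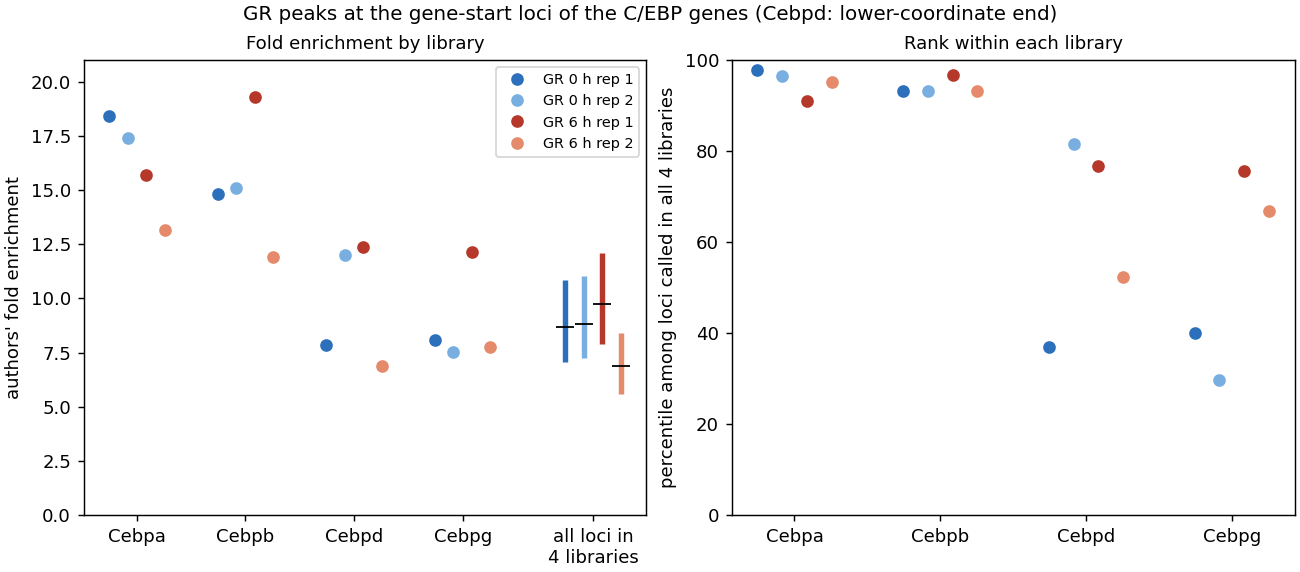
Left, the authors' fold enrichment of the gene-end peak of each gene in each library, with the median (black) and quartiles (coloured bars) of all 5012 loci called in all 4 libraries. Right, the percentile of the same peaks among those loci, where Cebpa and Cebpb lie above 90 in every library and the 6 h points of Cebpg (75.5 and 66.7) lie above its 0 h points (39.9 and 29.8).

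Peaks in the 4 windows numbered 4 and 7 at 0 h and 13 and 7 at 6 h, with means of 5.5 ± 2.12 and 10 ± 4.24 (SD, n = 2 at each time). The first 6 h library was high and the other 6 h library equalled the second 0 h library. The difference of 4.5 peaks had an exact permutation p of 0.667. It fell to 1.5 when the first 6 h library was left out, was 7.5 when the other 6 h library was left out, and was 1 with lists shortened to the same length. Per 10000 peaks of the list there were 3.95 and 7.20 at 0 h and 8.82 and 6.61 at 6 h, and the difference of 2.14 was within the spread between libraries (exact permutation p = 0.667, n = 2 each).

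Just outside the windows, between 50 and 100 kb, Cebpa and Cebpg reached each other's loci. Near Cebpb lay 4 further loci, of which 1 was only at 6 h (52077 bp past the gene, 8.38 and 9.37). The locus 86791 bp past the gene was called in all 4 libraries, with 6.06 and 4.90 at 0 h and 14.96 and 13.9 at 6 h. Both 6 h values exceeded both 0 h values there, as at 9.16% of loci called in all 4 libraries, and it lies outside the window by which loci were assigned to Cebpb. Cebpd had none in this range.

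The genes most like each member were those whose strongest peak within 50 kb was closest over the 4 GR libraries, by the mean absolute difference of log2 fold enrichment. For Cebpa these were Aplp2 and Gm7244, which share their strongest peaks (0.057). For Cebpb they were Aox2 and Bzw1, which also share theirs (0.058). Ercc5 (0.040) and Arl6ip6 (0.044) were closest to Cebpd. Cdc25a (0.045) and Abca1 (0.046) were closest to Cebpg.

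Other genes of the pathway were counted from fixed lists. All of these lists were drawn up with earlier results of these data known, so their counts are no independent evidence. Among 12 genes listed as relatives by C/EBP name or by class, 8 had a locus in all 4 libraries (45.5% of all genes did). A locus only at 6 h was found at 5 of them (16.5% of all genes). The 5 were Cebpe, another C/EBP gene, the clock output factors Dbp and Tef, their repressor relative Nfil3, and Atf5. The locus near Dbp had the highest fold enrichments of these, 17.96 and 17.7. With the stronger 50% of each list the 5 became 3. Ddit3, which encodes the C/EBP partner CHOP, had 3 loci in all 4 libraries and none only at 6 h. Batf had no locus, as was so for 6824 of all 21887 genes.

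Among 11 genes that act before C/EBP factors, 8 had a locus in all 4 libraries, 2 a locus only at 6 h and 3 a locus only at 0 h, where all genes had shares of 45.5%, 16.5% and 6.78%. The count only at 6 h was near the share of all genes. Egfr, the receptor of the EGF-like ligands that relay the LH signal, had 4 loci only at 6 h, all in H3K27ac. Lhcgr, the LH receptor gene, had 1 only at 6 h (12.3 and 9.74) and 1 only at 0 h (8.08 and 6.80). Trib2, whose protein promotes the breakdown of C/EBPα, had 2 loci only at 0 h. Nr3c1, the gene of GR itself, had no GR locus, like 6824 of all 21887 genes, and it had 4 H3K27ac peaks. The count of 2 genes with a locus only at 6 h was 4 without the second 6 h library.

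Among 18 genes known to be bound or regulated by C/EBP factors in ovary or elsewhere, 10 had a locus in all 4 libraries. A locus only at 6 h was found at 10 and one only at 0 h at 3, where all genes had shares of 45.5%, 16.5% and 6.78%. This list holds ovulatory genes whose loci were known when it was drawn up, so its counts are no independent evidence. Prlr, the prolactin receptor gene, had 3 loci only at 6 h, the strongest with 14.2 and 11.9. Pparg, a nuclear receptor gene that C/EBP factors activate in fat cells, had 3, with fold enrichments from 6.44 to 7.75. Pparg also had 2 loci in all 4 libraries, and the strongest peaks in its window had 9.39 and 9.48 at 0 h and 19.5 and 19.7 at 6 h. Sult1e1, oestrogen sulfotransferase, had 1 locus only at 6 h (9.91 and 8.65). Cyp19a1, Pck1 and Inha had loci only at 0 h, and Il6 and Fabp4 had no locus (6824 of all 21887 genes had none). A locus in all 4 libraries within 1 kb of a gene end was found at 2 of these 18 genes (Vegfa and Inha), at 5 of the 12 relatives, at 7 of the 11 upstream genes and at all 4 C/EBP genes, against 20.5% of all genes. Differences between the lists were not tested.

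**Figure D4:**
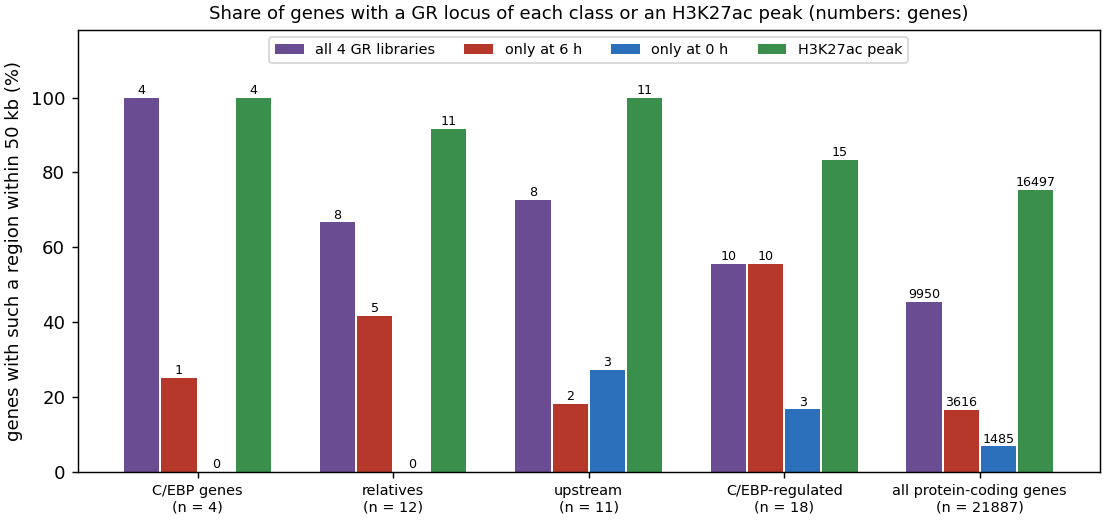
Share of the genes of each list, and of all protein-coding genes, with a GR locus in all 4 libraries, only at 6 h or only at 0 h, or with an H3K27ac peak, within 50 kb (bars, in percent, with the number of genes above). All 4 C/EBP genes have a locus in all 4 libraries and 1 has a locus only at 6 h, while 10 of the 18 regulated genes have one only at 6 h.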

How the data were processed

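Peak lists of 4 GR libraries and 1 H3K27ac library were used. The authors aligned reads to mm10 with Bowtie2 2.4.5 and ran MACS2 for the peaks, per the submitters' processing notes, which as used here give no MACS2 version. They deposited 1 list per library. For each GR peak the deposited lists give the summit position, the −log10 of a p-value and of a q-value, a score (the former times 10, as a whole number) and a fold enrichment, which is a ratio to the local background. The deposited H3K27ac list holds positions only. Depth and control of a list are unknown here, so where a peak is missing, that library only failed to reach the authors' limit. Intervals describe counting error alone.

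Only chromosomes 1 to 19, X and Y were used, and GR peaks with 1 bp or more in common were merged into loci (Python 3.11.15, pandas 2.3.3, tested on simulated peaks). Genes and promoters came from RefSeq tables of GRCm38.p6 (mm10 coordinates). A promoter entry was found for 3 of the 4 genes, not for Cebpd. Loci within 50 kb of each gene span were taken. Libraries were compared with two-sided exact permutation tests, which with 2 libraries a time cannot give a p under 0.333. Other windows (10 and 100 kb), merging across 500 bp, shorter lists, stricter acetylation overlap, left-out libraries and paired libraries were tried. The rule named every locus of the members, fixed lists of relatives, upstream and regulated genes, and for each member the 2 genes most like it. The palindromic GR element was searched as a fixed spaced pair of half-sites, and each motif on both strands. The members, lists and motifs were chosen with earlier results of these data known. The motifs CCAAT and TGACGC, and the comparisons of summits and of ranks, were added after the values were seen. The labels number the replicates without saying that they came from separate mice, so p-values reflect library spread that may be technical.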

Additional observations from a re-analysis of the deposited data

How the results depend on the processing

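With windows of 100 kb, 2 loci near the 4 genes were called only at 6 h and 7 in all 4 libraries, since a wider window holds more loci. With the stronger 50% of each list, 2 loci were called in all 4 libraries (Cebpa and Cebpb), 100% of the loci overlapped H3K27ac, 3 relatives had a locus only at 6 h and 6 regulated genes one in all 4 libraries. Shorter lists hold fewer peaks by construction. Leaving out 1 library at a time gave 1 to 6 loci only at 6 h, 88.9% to 100% of loci in H3K27ac, 2 to 4 upstream genes with a locus only at 6 h, and a difference in peaks per library of 1.5 to 7.5. The replicate block, which pairs libraries of the same number, gave the same difference of 4.5 peaks (9 and 0 in the pairs, exact sign-flip p = 1). The numbers are not said to mark shared mice, and with 2 pairs this test could not pass. Over the 4 genes together and the lists, 73 recomputed values kept their direction (differences) or stayed within 1.5 times (counts) or within the interval or spread (shares and percentiles), and 11 did not. The 73 include the replicate block, whose mean difference could not change. They also include the count of 1 locus only at 6 h with the stronger 50% of each list. That locus was the Cebpg start locus, not the one past Cebpb. Of the counts per gene, 42 stayed within 1.5 times and 6 did not, all 6 with windows of 100 kb. The remaining limits are the unknown depth of each list, 2 libraries a time and 1 H3K27ac library at 0 h.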
